A study of Homo sapiens with 10 samples.

Results

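The annexin and S100 genes were followed in hTERT-RPE1 cells by CUT&Tag peaks of RNA polymerase II and of the histone mark H3K4me1. Members were all protein-coding RefSeq genes named ANXA with a number, S100A with a number (S100A7A included), S100B, S100G, S100P or S100Z. This gave 32 of 19974 protein-coding genes on the chromosomes analysed, 12 annexins and 20 S100 genes, of which 16 S100 genes lie on chromosome 1 and 4 elsewhere. Membership of each gene rested on its name, but the families were chosen with earlier results of these data known.

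hTERT-RPE1 is a line of human retinal pigment epithelium made immortal by telomerase, and the labels give it as wild type and name no treatment. In CUT&Tag an antibody tethers a transposase that tags the DNA around its target. The targets were Pol II with phosphate on serine 5 of its tail repeats, typical of starting polymerase (called Pol II from here on), with 6 libraries, and H3K4me1, known from enhancers and the flanks of promoters, with 4 libraries. The authors merged the libraries into 4 peak lists, list 1 (labelled R1) and list 2 (R2) for each target, with 49351 and 47180 Pol II peaks and 123666 and 124465 H3K4me1 peaks used here. A target therefore has 2 replicates, whose origin the labels do not state. All values come from a pool of cells, so fewer cells with a mark and less of the mark per cell cannot be told apart.

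Annexins are proteins that bind acidic membrane phospholipids when calcium is high, and take part in membrane repair, exocytosis and membrane organisation. S100 proteins are small calcium sensors built from a pair of EF-hand motifs, which change shape when they bind calcium and then grip target proteins. The families meet directly: S100A10 joins ANXA2 in a complex that is known for plasminogen binding at the cell surface, and S100A11 binds ANXA1. Most S100 genes stand in a cluster on the long arm of chromosome 1, interrupted by genes of the skin barrier.

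The promoter windows of 8 members carry much of what follows and are given here. Each runs from 250 bases before to 50 bases after an annotated start, 5′ to 3′ on the gene's strand, from the RefSeq promoter table (GRCh38.p14; the processing notes name hg38, the same assembly, for the lists). Capitals mark matches on either strand to the letters of the TATA box, TATAAA. They also mark the letters that the factor AP-1 is known to bind, TGANTCA. The third element marked in capitals is the GC box, with the letters GGGCGG, whose neighbouring matches can overlap. ANXA2 and S100A10 are shown as partners with unequal Pol II, ANXA1 and S100A11 likewise, ANXA5 and S100A6 as members with Pol II over the start, and S100A9 and S100A8 as members without a peak.
ANXA2, chr15:60397937-60398236, minus strand: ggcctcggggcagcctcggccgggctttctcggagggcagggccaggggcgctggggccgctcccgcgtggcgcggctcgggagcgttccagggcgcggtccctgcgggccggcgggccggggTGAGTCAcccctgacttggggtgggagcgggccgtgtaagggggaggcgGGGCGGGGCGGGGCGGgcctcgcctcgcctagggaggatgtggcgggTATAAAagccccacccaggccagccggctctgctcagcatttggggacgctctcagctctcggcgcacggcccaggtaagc
S100A10, chr1:151993810-151994109, minus strand: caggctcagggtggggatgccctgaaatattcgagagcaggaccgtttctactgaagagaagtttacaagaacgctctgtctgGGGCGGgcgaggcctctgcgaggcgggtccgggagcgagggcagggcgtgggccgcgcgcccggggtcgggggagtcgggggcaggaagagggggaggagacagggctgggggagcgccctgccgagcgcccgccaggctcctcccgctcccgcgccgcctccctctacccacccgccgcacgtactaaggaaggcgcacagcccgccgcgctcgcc
ANXA1, chr9:73151615-73151914, plus strand: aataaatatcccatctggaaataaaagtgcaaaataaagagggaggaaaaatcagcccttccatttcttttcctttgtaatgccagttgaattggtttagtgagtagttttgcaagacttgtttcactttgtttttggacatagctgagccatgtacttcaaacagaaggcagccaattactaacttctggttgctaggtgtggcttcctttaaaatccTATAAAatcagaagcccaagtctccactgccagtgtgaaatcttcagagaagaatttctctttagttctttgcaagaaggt
S100A11, chr1:152036955-152037254, minus strand: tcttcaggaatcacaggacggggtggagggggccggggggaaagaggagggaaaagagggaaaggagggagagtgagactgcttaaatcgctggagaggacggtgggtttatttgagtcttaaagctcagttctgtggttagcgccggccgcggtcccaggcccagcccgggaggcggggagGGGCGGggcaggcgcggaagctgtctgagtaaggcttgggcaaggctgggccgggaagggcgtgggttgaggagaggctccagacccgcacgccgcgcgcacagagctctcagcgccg
ANXA5, chr4:121696931-121697230, minus strand: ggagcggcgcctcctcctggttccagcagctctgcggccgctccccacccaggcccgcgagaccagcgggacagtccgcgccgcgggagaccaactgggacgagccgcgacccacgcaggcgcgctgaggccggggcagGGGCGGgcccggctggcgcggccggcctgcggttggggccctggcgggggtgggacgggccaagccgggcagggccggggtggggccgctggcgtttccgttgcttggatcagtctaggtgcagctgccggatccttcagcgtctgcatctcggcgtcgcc
S100A6, chr1:153535942-153536241, minus strand: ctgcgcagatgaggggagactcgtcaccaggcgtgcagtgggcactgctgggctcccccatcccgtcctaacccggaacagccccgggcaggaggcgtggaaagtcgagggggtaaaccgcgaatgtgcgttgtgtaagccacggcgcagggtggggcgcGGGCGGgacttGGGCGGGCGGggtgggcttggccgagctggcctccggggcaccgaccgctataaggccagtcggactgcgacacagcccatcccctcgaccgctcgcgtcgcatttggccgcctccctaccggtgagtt
S100A9, chr1:153357604-153357903, plus strand: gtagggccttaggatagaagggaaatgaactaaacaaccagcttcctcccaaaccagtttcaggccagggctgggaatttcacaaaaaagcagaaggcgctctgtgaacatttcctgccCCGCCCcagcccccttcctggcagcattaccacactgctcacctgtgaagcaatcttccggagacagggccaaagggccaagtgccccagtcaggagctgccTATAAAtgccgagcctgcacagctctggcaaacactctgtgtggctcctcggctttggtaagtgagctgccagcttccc
S100A8, chr1:153391024-153391323, minus strand: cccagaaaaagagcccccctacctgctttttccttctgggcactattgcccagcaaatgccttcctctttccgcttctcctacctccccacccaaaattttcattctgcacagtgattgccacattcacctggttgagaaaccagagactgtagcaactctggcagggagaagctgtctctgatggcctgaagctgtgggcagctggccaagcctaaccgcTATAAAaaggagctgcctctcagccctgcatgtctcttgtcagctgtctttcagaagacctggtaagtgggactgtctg

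Pol II marked 16 of the 32 members (50%), counted when each list had a peak within 1 kb of the same end of the gene, against 39.4% of all protein-coding genes. Among the annexins these were 7 of 12 (58.3%): ANXA1, ANXA2, ANXA4, ANXA5, ANXA7, ANXA11 and ANXA13. Among the S100 genes they were 9 of 20 (45%): S100A1, S100A2, S100A3, S100A4, S100A5, S100A6, S100A10, S100A11 and S100A13, all on chromosome 1. S100B, S100P, S100Z and S100G, which lie on other chromosomes, had none. Either list alone gave the same 16 genes, while the share of all coding genes rose to 43.7% with list 1 alone and 47.4% with list 2 alone. Starts could be placed for the 29 members in the promoter table, and 15 of them (51.7%) had a peak in each list within 1 kb of a start, against 42.2% of all coding genes there. That count holds S100A16, whose Pol II lies at an inner start, and leaves out S100A5, whose Pol II belongs to the start of its neighbour, and ANXA13, which has no entry in the table. No test was made on these shares, and the distance of the members from the background shrank with either list alone and with a window of 500 bp, where it was 37.5% against 34.5%.

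The values below are the authors' fold enrichments of the highest peak within 1 kb of the called end, in list 1 and then in list 2. Their median over the 16 members was 5.61 and 4.98, beside 5.99 and 5.36 over all 7866 coding genes with Pol II at an end. The members spread widely around it, from 2.42 and 2.34 at ANXA2 to 11.1 and 8.90 at ANXA5.

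**Figure D1:**
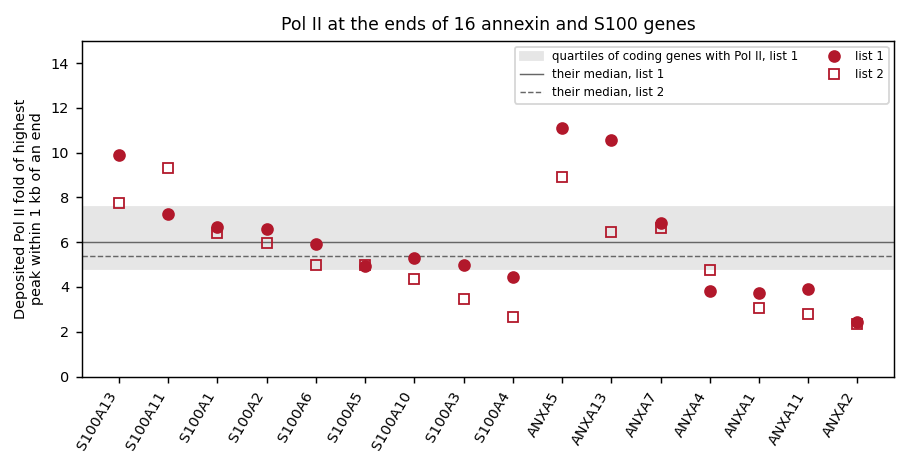
Deposited Pol II fold of the highest peak within 1 kb of a called end (vertical axis, linear) for each of 16 members (horizontal axis), list 1 as filled circles and list 2 as open squares; the band and lines give the quartiles and medians of all coding genes with Pol II at an end. ANXA5, ANXA7, ANXA13, S100A1, S100A2, S100A11 and S100A13 lie above the median of each list, and the other 9 members below it.

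ANXA2 (chr15:60347151-60397986), the partner of S100A10, combined the lowest end peaks of the families with the most Pol II inside the gene. Its start held folds of 2.24 in list 1 and 1.94 in list 2, and the finish side 2.42 and 2.34. A lower end fold was found in 0.254% of coding genes with Pol II in list 1 and in 0.661% in list 2. Yet 5886 bases of the gene (11.6%) lay in peaks of both lists, more than in 99.6% of coding genes. They formed 12 separate stretches spread along the whole gene, and the highest fold among them was 4.604 in list 1 and 3.31 in list 2. The stretches were thus many and low rather than one high peak at the start. Of the 12, 8 lay on H3K4me1 of both lists, and the 4 others included the 3 nearest the start. H3K4me1 ended short of the start base, 75 bp upstream in list 1 and 688 bp upstream in list 2. Higher Pol II folds lay upstream of the gene, at 6.91 and 5.03 at 10561 bp and at 9.03 and 5.34 at 29422 bp from the start, both on H3K4me1. ANXA2 has several pseudogenes of near-identical sequence, and the treatment of reads that match more than 1 place was not stated in the labels.

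S100A10 (chr1:151982915-151993859), known as p11 and unusual in its family for not needing calcium, had Pol II folds of 5.29 and 4.36. Their summits lay 1152 and 1102 bp inside the gene. At the start itself list 2 alone had a peak, of 2.07, at 2 bp. Inside the gene 1559 bases (14.2%) lay in Pol II peaks of both lists, in 3 stretches that all overlapped H3K4me1. No H3K4me1 of both lists lay within 1 kb of the called end, because the nearest peak was 995 bp downstream of the start in list 1 and 1023 bp upstream in list 2. In list 1 alone the distance is under 1 kb.

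ANXA1 (chr9:73151865-73170393), lipocortin, known as a glucocorticoid-induced mediator of anti-inflammatory signals, resembled ANXA2. Its start peak had a fold of 3.71 in list 1 at 10 bp, and the list 2 peak of 3.05 had its summit 717 bp inside. Inside the gene 2586 bases (13.96%) lay in Pol II peaks of both lists, in 8 stretches with folds up to 4.002 and 3.05. Of the 8, 1 overlapped H3K4me1 of both lists. H3K4me1 was far from the start, with the nearest peak 2090 bp downstream in list 1 and 1954 bp upstream in list 2. Upstream of the gene, Pol II was higher and on H3K4me1, with folds of 13.2 and 7.06 at 14333 bp, 9.53 and 5.86 at 19545 bp, and 10.1 and 6.73 at 32816 bp. ANXA1 and S100A10 were the 2 of 16 members with Pol II (12.5%) that lacked H3K4me1 of both lists within 1 kb of that end, against 7.21% of coding genes with Pol II.

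S100A11 (chr1:152032506-152037004), calgizzarin, the partner of ANXA1, showed instead 1 compact peak on its start. The folds were 7.25 and 9.34, with summits 3 and 4 bp from the start. H3K4me1 covered the start base in both lists, with folds of 6.60 and 6.80. Pol II of both lists filled 655 bases of the gene (14.6%).

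ANXA5 (chr4:121667946-121696980), the annexin used as a probe for phosphatidylserine on dying cells, had Pol II at both ends. At the start the folds were 6.81 and 6.75, with summits 32 and 2 bp away. On the finish side they were higher, 11.1 and 8.90, with summits 697 and 764 bp from the end and inside the gene. Another place, 6159 bp into the gene, had 10.2 and 7.64, so the start was the lowest of these 3 sites in both lists. All 5 inner stretches lay on H3K4me1.

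ANXA7 (chr10:73375101-73414058), synexin, known for calcium-dependent membrane fusion, had 6.88 and 6.64 with both summits 21 bp from the start and H3K4me1 over the start of 7.02 and 7.17. ANXA11 (chr10:80150889-80205808), which tethers RNA granules to lysosomes, had 3.90 and 2.80 at its outermost start. Its inner start at 80204491 had more, 5.02 and 4.25. The largest inner value of ANXA11 lay near the finish of the gene, at 6.92 and 4.55. ANXA4 (chr2:69643808-69827112), an annexin of secretory epithelia, had 3.82 and 4.74 at its outer start. The summits there lay 537 and 245 bp from ANXA4 and 467 and 314 bp from AAK1. The peaks of the 2 lists did not overlap at this end. The ANXA4 call was lost when an overlap of 1 bp was required, and with peaks at or above the median -log10 q. The inner start at 69742134 had 5.39 and 5.14, and an inner site 46434 bp from a start reached 9.72 and 6.35. ANXA13, a gene known from intestinal and kidney epithelium, had 10.6 and 6.45 at its lower end, and all 6 stretches inside it lay on H3K4me1; the tables used here give it no strand, so this end cannot be called its start.

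The other 5 annexins had no end peak shared by the lists, yet each had Pol II inside. ANXA3 (chr4:78551770-78610447) had 1 inner stretch of 8.41 and 7.25 at 8921 bp from its start, on H3K4me1, and H3K4me1 of 5.26 and 4.52 covered the start itself. ANXA6 (chr5:151100706-151157779), the annexin with a doubled core, had Pol II 1570 and 1688 bp downstream of its outer start, just outside the 1 kb window, with folds of 6.12 and 4.66. ANXA9 (chr1:150977306-150995634) held 190 bases in 1 stretch of 4.56 and 3.69. ANXA10 (chr4:168092537-168187736), known from stomach, held 265 bases in 1 stretch of 4.20 and 4.47. ANXA8 (chr10:47467993-47991796) held 5 stretches, up to 12.1 and 10.2; its model spans 523804 bases and a near-identical copy, ANXA8L1, exists, so its values are uncertain.

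Pol II inside the gene was thus found in all 12 annexins and in 7 of 20 S100 genes, against 49.3% of all coding genes and 62.7% of the 11126 coding genes whose length falls in the annexins' range of 18329 to 523804 bases. The S100 genes are mostly much shorter, with a median of 4506 bases against 55760 for the annexins, and the range of longer genes had the higher share above. Over the 16 members with Pol II at an end the median share of the gene in Pol II was 4.29%, beside 1.26% for coding genes with Pol II. These members were shorter, with a median of 13254 bases against 28246, and the shares were not matched for length. The stretches inside members lay on H3K4me1 in 54 of 68 cases (79.4%), and those in the members and 50 kb to each side in 108 of 128 (84.4%). Of all 32694 Pol II stretches, inside genes or not, 85.0% did. The 14 stretches off H3K4me1 belonged to ANXA1 (7), ANXA2 (4), ANXA6 (2) and ANXA11 (1).

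**Figure D2:**
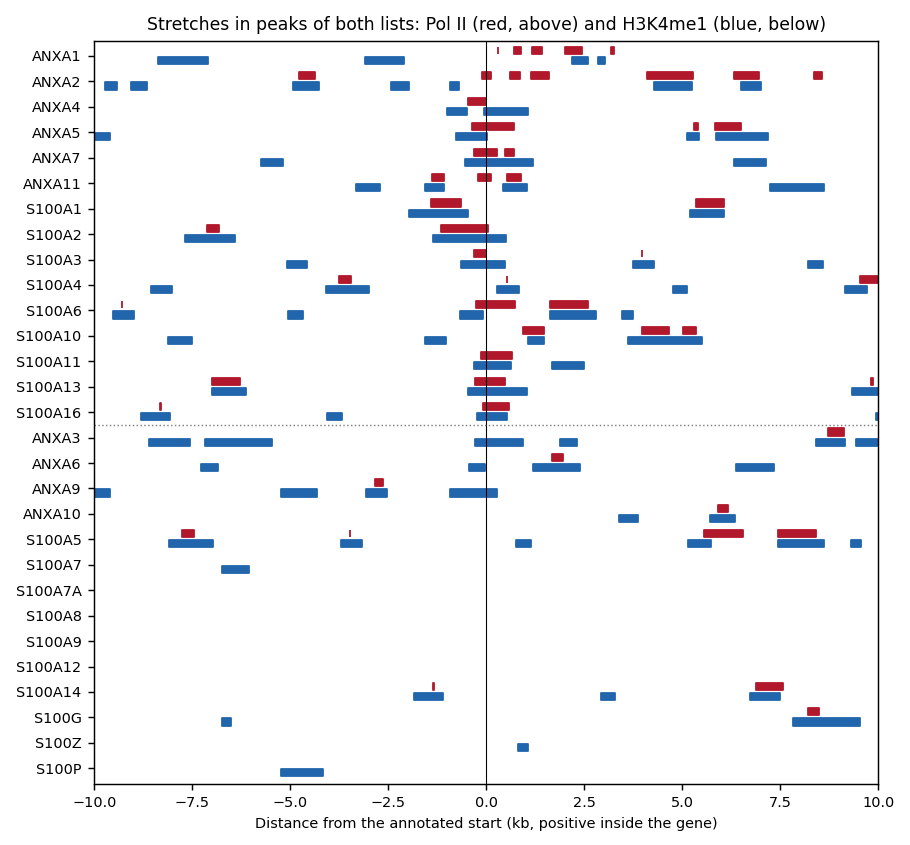
Stretches that lie in peaks of both lists, Pol II in red and H3K4me1 in blue below it, within 10 kb of 1 annotated start for each of 29 members (horizontal axis in kb, positive inside the gene; each bar is 1 stretch). Genes above the dotted line had a Pol II peak in each list within 1 kb of that start; of these 15, blue covers the drawn start in 8 and is off it in ANXA1, ANXA2, ANXA11, S100A1, S100A4, S100A6 and S100A10, and S100A7A, S100A8, S100A9 and S100A12 are empty.

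The S100 genes from S100A6 to S100A2 form a block of 31.246 kb that held Pol II and H3K4me1. S100A6 (chr1:153534599-153535991), calcyclin, known from proliferating cells, had Pol II on its start of 4.93 and 4.98, with summits 28 and 2 bp away. A further list 1 peak on its finish side reached 5.94, and in list 2 a single peak of 2896 bp spanned the whole gene. Pol II of both lists filled 52.5% of this short gene, a larger share than in 99.2% of coding genes with Pol II at an end. S100A5 (chr1:153537147-153543685) was counted through this same S100A6 peak, whose summits lay 1128 and 1158 bp from its end. Its own starts had no Pol II within 1 kb, with 3178 and 3472 bp the nearest distances.

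S100A4 (chr1:153543621-153545806), metastasin, known from mesenchymal and motile cells, had 4.46 and 2.64, with summits 608 and 395 bp inside the start. The peaks of the 2 lists shared 3 bases. S100A4 was lost when peaks of -log10 q under 2 were removed, so its call is among the least secure of the 16. S100A3 (chr1:153547329-153549258), known from the hair cuticle, had 4.997 and 3.44 with summits 58 and 62 bp from the start and H3K4me1 over the start of 5.25 and 4.32. S100A2 (chr1:153561108-153565844), known as a p53 and p63 target of basal epithelia, had 6.58 and 5.97. Its summits lay 687 and 537 bp upstream of the outer start, and both Pol II and H3K4me1 covered the start base in both lists.

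S100A13 (chr1:153618799-153634361), known for the release of FGF1 without a signal peptide, had the highest list 1 fold of the S100 genes, 9.91, with 7.75 in list 2. Its summits lay 403 and 302 bp from its outer start but 108 and 7 bp from the neighbouring gene CHTOP, so the peak cannot be assigned to S100A13 alone. Its inner starts, at 153627239 and 153627505, had 6.69 and 6.40. S100A1 (chr1:153628434-153632039), known from heart muscle, was counted through that same inner peak, whose summits lay 833 and 906 bp from S100A1 and 96 and 23 bp from a start of S100A13. S100A16 (chr1:153606883-153613137) had no Pol II within 1 kb of its ends. At its inner start at 153609355 it had Pol II of 5.41 and 4.31 and H3K4me1 of 4.76 and 5.12, both covering the start base. S100A14 (chr1:153614255-153616325), known from epithelia, had its nearest Pol II 1322 and 1136 bp upstream.

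S100A8 and S100A9, whose proteins form calprotectin of neutrophils and monocytes, and S100A12, which is also known from neutrophils, had no Pol II peak in either list at any end. The nearest Pol II peak to S100A9 (chr1:153357854-153361023) was 130914 and 132517 bp away, and the nearest H3K4me1 peak 89409 and 89227 bp away. S100A12 (chr1:153373711-153375621) had its nearest H3K4me1 at 71642 and 71460 bp. S100A8 (chr1:153390032-153422583), S100A7A and S100A7 (chr1:153457744-153460651), the last a psoriasis-linked protein of keratinocytes, likewise had no Pol II and no H3K4me1 within 5 kb. In the 102.798 kb from S100A9 to S100A7, each H3K4me1 list held 1 peak, with folds of 10.9 and 9.50, near the pseudogene S100A7P2. S100A7 and S100A7A are close copies whose promoter windows were identical at 289 of 300 positions (96.3%), so peaks there would be uncertain.

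The 4 S100 genes on other chromosomes had H3K4me1 without Pol II at an end. S100B (chr21:46598604-46605082), the marker protein of astrocytes and Schwann cells, held 766 bases of H3K4me1 inside it, at 9.44 and 10.6. S100P (chr4:6693878-6697170), known from placenta and some carcinomas, had 824 bases within 5 kb, at 9.32 and 10.1. S100Z (chr5:76850014-76952953) had 2348 bases in the gene and 5 kb to each side, of which 1478 lay inside the gene. S100G (chrX:16650158-16654670), the intestinal calcium-binding protein calbindin-D9k, had 1697 bases within 5 kb, none of them inside the gene.

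H3K4me1 of both lists lay within 5 kb of an end in 27 of 32 members (84.4%), against 78.7% of coding genes. All 12 annexins were among them, and the 5 without it were S100A7, S100A7A, S100A8, S100A9 and S100A12. Within 1 kb the count was 21 of 32 (65.6%), against 63.9%. Within 50 kb it was 30 of 32 (93.8%), against 91.1%, with S100A9 and S100A12 the exceptions. S100A8 was counted through the upper end of its model alone, as its annotated starts lay 55893 to 56287 bp from the nearest H3K4me1 peak. These shares are close to the background in this setting. With peaks at or above the median -log10 q they stood further above it.

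The amount of H3K4me1 differed more than its presence. The median member had 11633 bases in H3K4me1 peaks of both lists in the gene and 50 kb to each side, beside 5647.5 over all coding genes. As a share of that span the medians were 7.31% for annexins, 9.70% for S100 genes and 4.03% for all coding genes. Pol II of both lists took up a median of 2.02% of the span for members and 0.689% for all coding genes. S100A3 had the most H3K4me1, 13.1%, and ANXA13 had 12.4%. Neighbouring S100 genes share most of these 50 kb windows, so their values count the same peaks several times and are not independent.

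**Figure D3:**
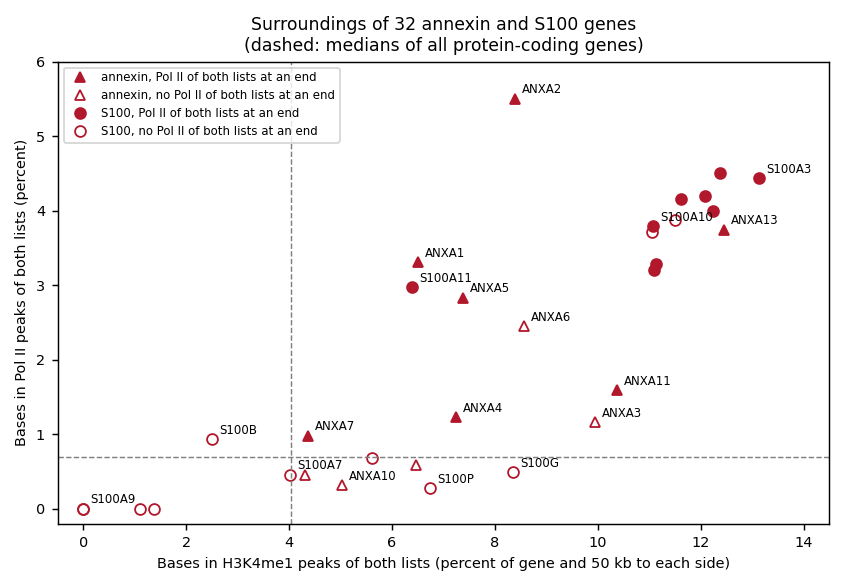
Share of the gene and 50 kb to each side in peaks of both lists, H3K4me1 on the horizontal axis and Pol II on the vertical axis (percent), for 12 annexins (triangles) and 20 S100 genes (circles), filled where both lists had Pol II within 1 kb of an end; dashed lines are the medians of all coding genes, 4.03% and 0.689%. The filled symbols lie to the right of and above both dashed lines, with ANXA2 highest at 5.50% Pol II. S100A9 and S100A12 lie at 0. Filled symbols were picked by Pol II inside the plotted span, so their height above the Pol II line is partly built in. Against the medians of the 7866 coding genes picked likewise, 4.89% H3K4me1 and 1.22% Pol II, ANXA7 lies below both, at 4.36% and 0.977%. The other filled symbols lie above both of these medians.

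Along chromosome 1 the S100 genes fell into marked and empty blocks. S100A10 and S100A11 formed the first, 54.09 kb with 4.09% of bases in Pol II and 9.51% in H3K4me1 of both lists. Chromosome 1 as a whole had 0.583% and 3.26%. Beyond S100A11 followed 1320.85 kb with 47 coding genes, mostly of the skin barrier, none of which had an end peak in both Pol II lists, with 0.0673% in Pol II and 0.486% in H3K4me1. The block from S100A9 to S100A7 had 0% and 0.752%. Marks returned between S100A7 and S100A6, where 73.947 kb without a coding gene had 1.95% and 8.34%. The block from S100A6 to S100A2 had 4.32% and 11.6%, the gap to S100A16 4.21% and 13.6%, and the block from S100A16 to S100A13 7.42% and 14.97%.

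The longest stretch without a Pol II peak in either list ran over 1440088 bases, from 152048680 to 153488767, and that without H3K4me1 over 986629 bases, from 152460452 to 153447080. Both hold skin barrier genes and the S100 genes from S100A9 to S100A7A, and the Pol II stretch also holds S100A7. Of the 63 coding genes that lie wholly in the span from S100A10 to S100A13, 9 had Pol II at an end, beside 39.4% of all coding genes. All 9 were S100 genes, though S100A5 was called through the start peak of S100A6 and S100A1 through that of an inner S100A13 start. CHTOP, whose lower end lies within the span and whose body reaches beyond it, also had Pol II there, through the peak it shares with S100A13.

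**Figure D4:**
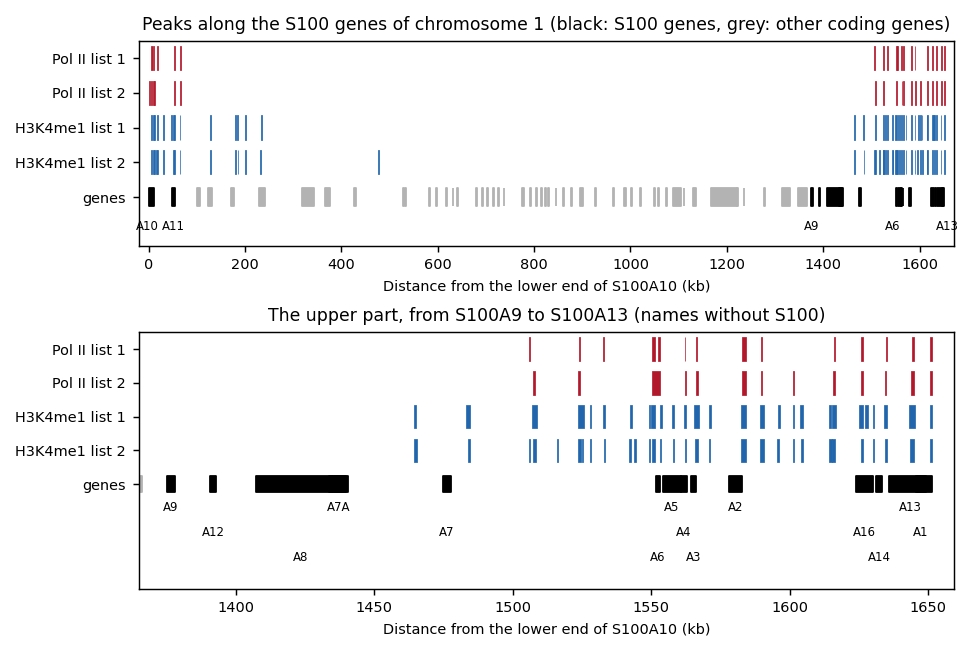
Peaks of the 4 lists (rows) along the S100 genes of chromosome 1, as distance in kb from the lower end of S100A10, with the whole span above and the upper part from S100A9 to S100A13 below; each bar is 1 peak, drawn with a minimum width, and black boxes are S100 genes. Pol II is absent from the middle of the span, where 47 other coding genes and the genes from S100A9 to S100A7 lie.

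The promoter letters differed between the members with and without Pol II at a start. TATAAA was present in 5 of the 15 genes with Pol II (33.3%, against 8.71% of the 6674 coding genes with Pol II) and in 9 of the 14 without (64.3%, against 15.1% of 9138). Over all windows of this length TATAAA was in 15 of the members' 40 (37.5%) and in 9.46% of 22132. The match stood at -31 to -26 from the start in ANXA1, ANXA2 and S100A4, and at -29 to -24 in S100A9 and the S100A8 window printed above. It lay elsewhere in ANXA11, at -61 to -56, in S100Z, at -11 to -6, and in S100A12, at -8 to -3. The window of the S100A8 start at 153390976 held the match at -126 to -121, and that of its start at 153391188 held none. In the other members with a match it began at -32 to -28. The close copies S100A7 and S100A7A both count among the 9 without Pol II. GGGCGG was present in 11 of the 15 genes with Pol II (73.3%, against 77.6%) and in 2 of the 14 without (14.3%, against 54.5%). Over all windows GGGCGG was in 14 of the members' 40 (35%) and in 56.3% of 22132. S100A6 and ANXA2 held 3 each, S100A10, S100A11 and ANXA5 1 each. TGANTCA was in 5 of the 40 windows (12.5%, against 6.15%): ANXA2, S100A2, S100A3, S100A5 and S100A12. CCAAT, searched too, was in 27.5% of the members' windows and 34.6% of all, and GGAATG, the TEAD letters, in 7.5% and 12.2%. These are matches of letters and show no binding.

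CG dinucleotides, dense in promoters of widely used genes, were scarcer too. The median window of a member held 6, against 21 over all coding promoters. The 22 windows of members with Pol II at a start had a median of 12, against 24 for the 10006 windows of all such genes. The 18 windows of members without it had 4, against 15 for 12126 windows. A gene with several starts counted once per start, whether or not that start itself had Pol II. Members with Pol II themselves differed: ANXA1 held 0, whereas ANXA2 and S100A10 held 32 each, S100A6 31 and S100A11 22. Of these 5, S100A11 was the member whose start base lay in H3K4me1 of both lists. Over all members with Pol II at a start that was so for 9 of 15 (60%), against 72.2% of coding genes with Pol II at a start.

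Genes that work with the families were read from 4 lists. Of 14 membrane repair and annexin partners, 11 (78.6%) had end peaks in both Pol II lists, including CHMP4B, a subunit of the ESCRT machinery, at 11.1 and 9.93, PDCD6IP, also called ALIX, at 8.96 and 7.74, and PDCD6, also called ALG-2, at 9.55 and 6.52. DYSF, dysferlin of muscle membrane repair, had none. Of 17 receptors and binding proteins, 7 (41.2%) had it, including CACYBP, which binds S100A6, at 9.56 and 7.94, S100PBP, which binds S100P, at 9.63 and 7.70, and PLAUR, the urokinase receptor, at 9.69 and 7.01. AGER, the receptor RAGE of several S100 proteins, ANXA2R and BSG had none. Of 15 other EF-hand sensors, 8 (53.3%) had it, including CALM3, which encodes calmodulin, at 6.76 and 5.83, and the centriole gene CETN2 at 6.24 and 5.13, while CALB1, CALB2 and EFHD2 had none. Of 19 listed genes between S100A11 and S100A9, mostly S100-fused or cornified envelope genes, 0 had Pol II at an end. Of these, 3 (15.8%) had H3K4me1 within 5 kb, and CRNN, FLG and FLG2 were among those without Pol II. The backgrounds are the 39.4% for Pol II and 78.7% for H3K4me1 of all coding genes.

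Markers of the labelled and of other cell types were read in the same way. Of 8 retinal pigment epithelium markers, 1 had Pol II at an end (PMEL, 5.36 and 2.98). RPE65, RLBP1 and MITF among the others had none at an end, and all 8 had H3K4me1 within 5 kb. Inside the gene, Pol II peaks of both lists covered 0 bases in PMEL, RPE65 and RLBP1 but 2792 in MITF. BEST1 and TYR, also of this marker list, held some as well, and OTX2 and SERPINF1 none. Whether the PMEL peak lies nearer another gene was not examined. All 4 mesenchymal markers had Pol II, as had KRT8 and KRT18 of 4 simple epithelial ones, through a shared peak of 5.82 and 3.81. Of 7 keratinocyte markers 0, of 6 glial and melanocyte markers 0 and of 6 myeloid markers 1 (CSF1R, 4.91 and 4.52) had Pol II at an end. In these lists MBP held 3240 bases of Pol II inside the gene, CSF1R 1506 and GFAP 337. CD14, ITGAM, LYZ, MLANA, IVL, KRT1 and KRT10 held 0. H3K4me1 within 5 kb was found in all 4 simple epithelial and all 4 mesenchymal markers. It was also found in 5 of 6 myeloid, 5 of 6 glial and melanocyte and 3 of 7 keratinocyte markers, against 78.7% of coding genes. The part of any other cell type in the members' values was not tested.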

How the data were processed

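CUT&Tag peaks of 10 libraries of hTERT-RPE1 cells were read from 4 deposited peak lists in narrowPeak layout, list 1 and list 2 of each target, which the authors made by merging 3 Pol II or 2 H3K4me1 libraries. The submitters' processing notes name BWA, SICER (a peak caller) and deepTools and the build hg38; whether SICER wrote these lists, with which threshold and control, is not stated there. Of the columns, the deposited score of each peak was not used. The deposited ratio, read as fold enrichment, gave every fold printed, as the authors' own value per peak. The deposited -log10 q served to filter peaks in alternatives. The other deposited value, the summit's offset, placed summits. Without read counts the depth is unknown, and no interval was computed.

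Genes came from the RefSeq gene table (GRCh38.p14), used with both ends of each model, and starts and strands from its promoter table, which holds 29 of the 32 members (ANXA8, ANXA13 and S100B were not matched). A gene was called for Pol II when each list had a peak within 1 kb of the same end, and for H3K4me1 within 5 or 50 kb. Bases of both lists are the intersection of the lists' peaks. Chromosomes 1 to 22 and X were analysed. Motifs were searched on both strands of 300 base windows. No statistical test was made: a target has 2 lists, there is no treatment, and genes are not replicates. Counts and medians stand beside those of all protein-coding genes instead. Python 3.11.15, numpy 2.4.6, pandas 2.3.3 and matplotlib 3.10.9 were used, and the overlap code was tested on simulated data.

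The members, the partner and marker lists and the alternatives were chosen with earlier results of these data known. Named with values are all members with Pol II at an end, the H3K4me1 of the rest, and up to 3 genes per partner or marker list with the highest mean fold and up to 3 without Pol II in alphabetical order. Some genes that this rule names are not reported here. Alternatives were each list alone, stricter -log10 q, overlap of the lists' peaks, other windows, starts alone, peaks nearer another gene, H3K4me1 outside the gene and, chosen after seeing the data, leaving out close paralogs.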

Additional observations from a re-analysis of the deposited data

How the results depend on the processing

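The number of members with Pol II at an end was 16 in the main setting and stayed within 1.5 times of it, between 12 and 20, under all alternatives run. The share of all coding genes moved too. A window of 500 bp gave 12 members (37.5%, against 34.5%), a window of 2000 bp 20 (62.5%, against 44.6%), and peaks at or above the median -log10 q 12 (37.5%, against 27.0%). Each list alone kept 16 (50%), against 47.4% without list 1 and 43.7% without list 2. Leaving out peaks with a summit nearer another coding gene gave 13 (40.6%, against 31.97%), without ANXA4, S100A5 and S100A13. H3K4me1 within 5 kb was called for 21 to 27 members and within 50 kb for 28 to 30. The median H3K4me1 cover around members was the least stable value: it was 11633 bases, 12960 and 15073.5 with list 1 or list 2 left out, 7428.5 outside the gene body alone and 8618 with peaks at or above the median -log10 q. The medians of all coding genes under these alternatives were 6803.5, 8379.5, 4017 and 3325, each below that of the members. Of 32 folds recomputed from the peak nearest an end, 6 moved by more than the SD between the lists: S100A10 in list 2 to 2.07, S100A6 in list 1 to 4.93, ANXA5 to 6.81 and 6.75 and ANXA2 to 2.24 and 1.94. No paired analysis was possible because no result comes from a test. The depth of the libraries is unknown, so a gene without a peak may hold signal below the authors' threshold.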

Other observations

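Some of the highest Pol II folds near members lay away from their ends and on H3K4me1 of both lists. The highest in list 1 along the S100 genes of chromosome 1 lay beyond S100A11, at chr1:152047835-152048679 in list 1, with folds of 13.995 and 9.998 and summits 825 and 797 bp from the non-coding gene LOC101927949. S100P, which had no Pol II at an end, had a Pol II stretch 25256 bp upstream of its start with 13.9 in list 1 and 6.86 in list 2. S100A10 had a stretch with 12.3 and 8.98 at 52307 bp downstream of its start. ANXA5 had one with 11.4 and 8.30 at 31958 bp upstream, and ANXA4 one with 11.4 and 7.08 at 42505 bp upstream. For S100A10, S100A11, ANXA4 and ANXA5 these folds were higher in both lists than those at the gene's own starts. Which gene, if any, such a site acts on cannot be read from these lists.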
